A study of Homo sapiens with 2 samples.

Results

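The BCL2 family genes are the 10 genes of the expression table that carry the symbols BCL2, BCL2L1, MCL1, BCL2A1, BAX, BAK1, BCL2L11, BBC3, PMAIP1 and BID, out of 58302 genes listed. The names were taken from a list, not from their values, and each symbol had 1 row. Their mRNA levels were compared between 2 RNA-seq libraries of HL60-EIF2S3 cells, 1 per condition. HL60, a human cell line established from a promyelocytic leukemia, was here made to carry an EIF2S3 transgene under the Retro-X Tet-Off Advanced system. In the library labelled DOX(+) the cells had been treated with doxycycline, the drug that shuts this system down. In the library labelled DOX(-) they were untreated, so that the transgene is meant to be on. EIF2S3 encodes the gamma subunit of eIF2, the factor that brings initiator tRNA to the ribosome. Both conditions share the stable transgene. The sources used here do not state whether the line is 1 clone, nor the drug dose and duration. No doxycycline control lacking the transgene was analysed here, so effects of the drug and of the transgene cannot be told apart.

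The BCL2 family decides whether the mitochondrial outer membrane is opened, the step that commits a cell to intrinsic apoptosis. The effectors BAX and BAK form the pores, anti-apoptotic members such as BCL-2, BCL-XL and MCL-1 hold them and their activators in check, and BH3-only proteins such as BIM, PUMA, NOXA and BID are switched on by stress and bind the anti-apoptotic groove or the effectors. Myeloid leukemia cells are known to depend on BCL-2 and MCL-1 in particular, which is why drugs that mimic the BH3 helix are used against them. Much of the family is set by protein turnover, cleavage and binding, which mRNA levels do not show.

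The library labelled DOX(+) held about 18521255 fragments and the library labelled DOX(-) about 16577632, which makes 1 FPKM worth 18.5 fragments per kilobase of transcript in DOX(+) and 16.6 in DOX(-). EIF2S3 itself stood at 126.2 in DOX(+) and 132.9 in DOX(-) (FPKM), within 1.5-fold, so the labelled overexpression in DOX(-) was not visible and the conditions are called here by their labels. The promyelocyte markers ELANE (299.4 FPKM in DOX(+), 396.4 FPKM in DOX(-)), AZU1 (52.3 and 75.98 FPKM in the same order) and CEBPE (12.6 and 8.93 FPKM) were expressed, but MPO, a defining enzyme of these cells, was at only 0.469 FPKM in DOX(+) and 0.274 FPKM in DOX(-). Of 14 markers of other cell types, 6 were listed at 0 in both libraries, and the summed level was 3.27 FPKM in DOX(+) and 4.32 FPKM in DOX(-). Of the 2 that reached 1 FPKM, 1 was past 1.5-fold lower in DOX(+), as were 3.11% of all genes that reached 1 FPKM. It is the B-cell gene CD79A (0.709 FPKM in DOX(+), 1.66 FPKM in DOX(-)), which reached 1 FPKM only in DOX(-). On its shortest annotated transcript these values stand for about 7 fragments in DOX(+) and 16 in DOX(-). The part of these markers in the results was not tested. In bulk RNA, fewer cells expressing a gene and less of its RNA per cell cannot be told apart.

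Ratios are DOX(+) over DOX(-). A gene was counted as different when its log2(FPKM + 1) differed by 1.5-fold or more and it reached 1 FPKM in either library. Since each condition has a single library, nothing measures how much cultures vary, no test was made, and every value compares these 2 libraries. By this rule 0 of the 10 family genes were higher in DOX(+), where 4.06% of all 11525 tested genes were, and 1 of 10 was lower, where 3.11% of all were. The gene that was lower is BCL2L11, which encodes BIM. The other 9 lay within 1.5-fold. The median log2 ratio of the 10 genes was 0.04, against 0.02 over all tested genes.

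**Figure D1:**
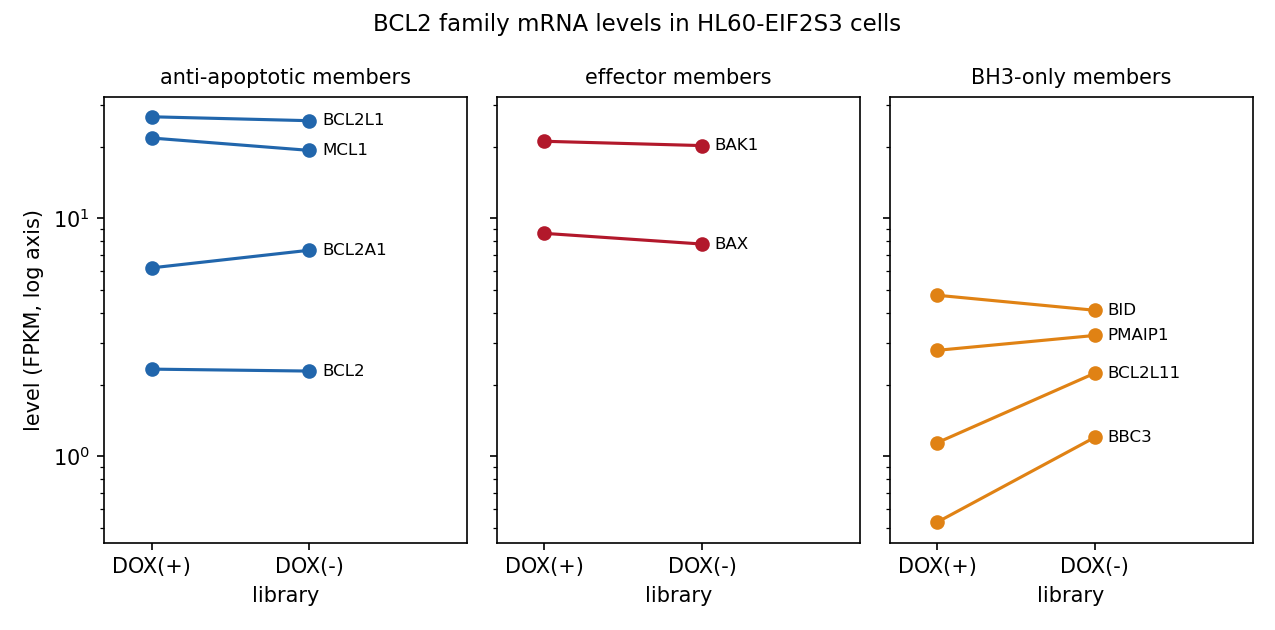
Level of each BCL2 family gene in FPKM on a log axis, in the libraries labelled DOX(+) and DOX(-), 1 point per library, in 3 panels by role. The lines of the anti-apoptotic members and effectors run nearly level, while those of BCL2L11 and BBC3 lie lower in DOX(+), at 1.14 and 0.528 FPKM, than in DOX(-), at 2.23 and 1.20 FPKM.

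Levels in FPKM are scaled to transcript length, which allows genes to be set side by side. The order of genes also depends on how fragments were divided between their transcripts, which was not tested. BCL2L1 stood highest in both libraries, MCL1 and BAK1 followed, and BBC3 was lowest. BCL2L1, MCL1 and BAK1 made up 72.5% of the summed family level in DOX(+) and 69.8% in DOX(-). Among tested protein-coding genes, 89.1% in DOX(+) and 88.8% in DOX(-) had a lower level than BCL2L1. BBC3 is not ranked in this way, since it entered the tested genes only through its level in DOX(-). From the top, the order in DOX(+) was BCL2L1, MCL1, BAK1, BAX, BCL2A1, BID, PMAIP1, BCL2, BCL2L11 and BBC3, and DOX(-) had the same order except that BAK1 stood above MCL1. That exchange is within counting error: MCL1 was 1.03 times BAK1 in DOX(+), and BAK1 was 1.05 times MCL1 in DOX(-). PMAIP1 and BCL2 in DOX(+), and BAX and BCL2A1, BID and PMAIP1, and BCL2 and BCL2L11 in DOX(-), were also neighbours whose levels could not be separated, even with the narrower counting interval described next.

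Counting intervals are 95% intervals on fragments estimated from the FPKM and an annotated transcript length, and cover counting error only. Which transcripts were present was not known, so each interval is given for the shortest annotated transcript, the widest interval, and for the longest, the narrowest. On the shortest, the intervals of all 10 ratios included equal levels. On the longest, those of MCL1, BCL2L11 and BBC3 did not, and those of the other 7 did.

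**Figure D2:**
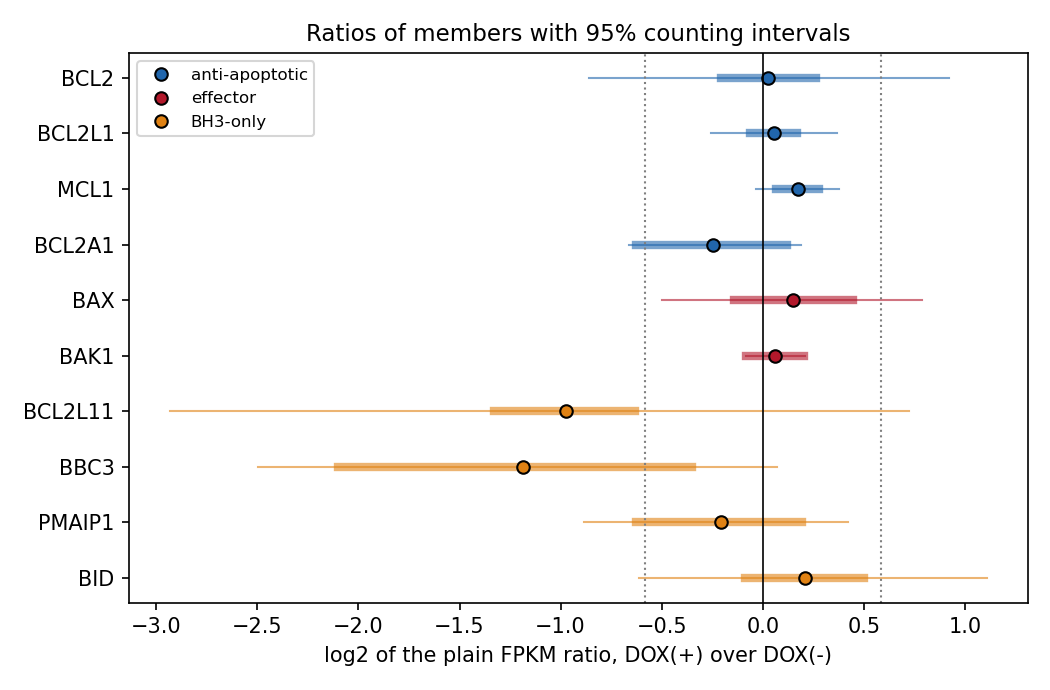
Log2 of the plain FPKM ratio, DOX(+) over DOX(-), for each family gene (points), with 95% counting intervals from the longest annotated transcript (thick bars) and from the shortest (thin bars), and dotted lines at 1.5-fold. All thin bars cross 0, and the thick bars of BCL2L11 and BBC3 lie below 0 while that of MCL1 lies above it.

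Anti-apoptotic mRNAs were at similar levels in the libraries. BCL2L1, which encodes BCL-XL, an anti-apoptotic protein of the outer membrane (chromosome 20, 31664452 to 31723989, minus strand, GRCh38), had 26.7 FPKM in DOX(+) against 25.7 FPKM in DOX(-). The ratio was 1.04, with an interval of 0.837 to 1.29 on the shortest transcript and 0.958 to 1.13 on the longest. MCL1, which encodes a short-lived anti-apoptotic protein that myeloid cells rely on (chromosome 1, 150574551 to 150579738, minus strand), was at 21.7 FPKM in DOX(+) against 19.3 FPKM in DOX(-). Its ratio was 1.13, with intervals of 0.978 to 1.3004 and 1.05 to 1.21. BCL2A1, a target of NF-kappaB that encodes A1 (chromosome 15, 79960889 to 79971446, minus strand), had the lower value in DOX(+), 6.18 FPKM, against 7.34 FPKM in DOX(-). Its ratio was 0.843, with intervals of 0.633 to 1.14 and 0.647 to 1.09. BCL2, the founding member and the target of venetoclax (chromosome 18, 63123346 to 63320128, minus strand), was at 2.32 FPKM in DOX(+) against 2.28 FPKM in DOX(-), and its ratio of 1.02 (intervals 0.550 to 1.89 and 0.866 to 1.20) turned to the other side of equality under 2 of 10 other settings. In both libraries BCL2 was the lowest of these 4 anti-apoptotic genes. BCL2L1 had over 10 times its level, with 26.7 against 2.32 FPKM in DOX(+) and 25.7 against 2.28 FPKM in DOX(-). The median log2 ratio of the 4 genes was 0.04, with a range of -0.21 to 0.16.

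The effectors were also close. BAK1, whose protein sits in the outer membrane of living cells (chromosome 6, 33572547 to 33580293, minus strand), had 21.0 FPKM in DOX(+) against 20.2 FPKM in DOX(-), a ratio of 1.04 and intervals of 0.943 to 1.15 and 0.944 to 1.15. BAX, whose protein moves from the cytosol to mitochondria (chromosome 19, 48954815 to 48961798, plus strand), had 8.64 FPKM in DOX(+) against 7.79 FPKM in DOX(-), a ratio of 1.11 and intervals of 0.707 to 1.73 and 0.905 to 1.36. BAK1 was thus the more abundant effector mRNA in either library, and its intervals nearly coincide, since its 3 annotated transcripts differ little in length (2132 to 2212 nucleotides). VDAC2, an outer-membrane channel that holds BAK and recruits BAX, was past 1.5-fold lower in DOX(+), with 11.1 FPKM in DOX(+) against 18.5 FPKM in DOX(-), a ratio of 0.603 and intervals of 0.458 to 0.786 and 0.521 to 0.695. Its relatives VDAC1 (94.2 FPKM in DOX(+), 112.7 FPKM in DOX(-)) and VDAC3 (42.8 FPKM in DOX(+), 38.6 FPKM in DOX(-)) lay within 1.5-fold.

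The BH3-only genes spread most. BCL2L11 encodes BIM, which binds every anti-apoptotic member and can activate BAX (chromosome 2, 111119378 to 111168447, plus strand). It was at 1.14 FPKM in DOX(+) against 2.23 FPKM in DOX(-), a plain ratio of 0.510 and a log2 ratio of -0.60 on the log2(FPKM + 1) scale, or 1.51-fold, just past the rule. The call was lost when levels were rescaled to the sum without mitochondrial genes, where the log2 ratio was -0.55. Mitochondrial genes took 27.7% of the summed FPKM in DOX(+) and 22.5% in DOX(-). BCL2L11 has 25 annotated transcripts of 243 to 5231 nucleotides, and its interval depends on them: 0.131 to 1.65 on the shortest, where the values stand for about 5 fragments in DOX(+) and 9 in DOX(-), and 0.398 to 0.645 on the longest, with about 110 fragments in DOX(+) and 194 in DOX(-). Its exons share 727 nucleotides with MIR4435-2HG, a lincRNA gene on the opposite strand that was at 2.47 FPKM in DOX(+) against 2.70 FPKM in DOX(-). Whether counting used strand was not given in the sources used here, so fragments of this stretch cannot be told apart.

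BBC3, which encodes PUMA, a strong BH3-only protein induced by endoplasmic reticulum stress (chromosome 19, 47220822 to 47232766, minus strand), showed a difference in the same direction at a lower level. It was at 0.528 FPKM in DOX(+) against 1.20 FPKM in DOX(-), a plain ratio of 0.440, or 2.27-fold, but 1.44-fold on the log2(FPKM + 1) scale and so within the rule. It entered the tested genes only through its level in DOX(-). The interval was 0.177 to 1.05 on the shortest transcript (about 9 fragments in DOX(+) and 18 in DOX(-)) and 0.233 to 0.784 on the longest. By plain FPKM BCL2L11 and BBC3 were both at least 1.5-fold lower, as were 5.79% of all tested genes and 12.1% of the 2662 tested genes with a mean under 2 FPKM, the range in which both lie. On the log2(FPKM + 1) scale the share lower in that range was 4.62%.

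PMAIP1, which encodes NOXA, the BH3-only protein that targets MCL-1 and A1 (chromosome 18, 59899948 to 59904306, plus strand), had 2.78 FPKM in DOX(+) against 3.22 FPKM in DOX(-), a ratio of 0.866 and intervals of 0.543 to 1.34 and 0.647 to 1.14. BID, which is cleaved by caspase-8 and links death receptors to mitochondria (chromosome 22, 17734138 to 17774770, minus strand), was the BH3-only gene with the higher value in DOX(+), 4.75 FPKM, against 4.10 FPKM in DOX(-). Its ratio was 1.16, with intervals of 0.655 to 2.16 and 0.939 to 1.42. The 4 BH3-only genes had a median log2 ratio of -0.34 and a range of -0.60 to 0.17 on the log2(FPKM + 1) scale. The median depends on the pseudocount, being -0.56 with 0.1 FPKM and -0.59 by plain FPKM ratio.

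**Figure D3:**
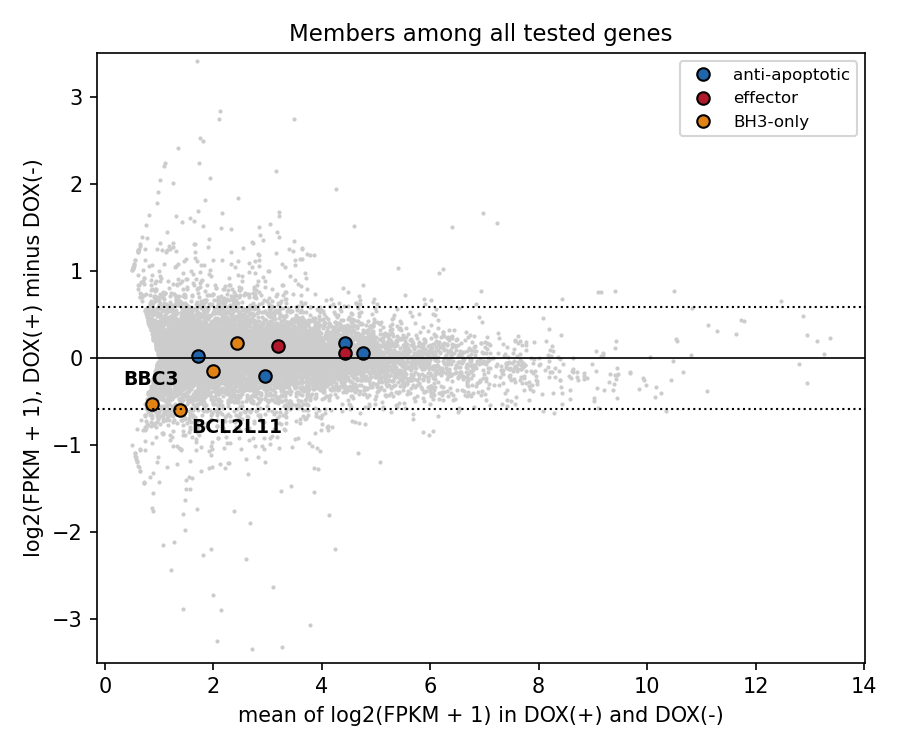
Difference of log2(FPKM + 1), DOX(+) minus DOX(-), against the mean of log2(FPKM + 1) for all 11525 tested genes (grey; 6 lie beyond the plotted range of 3.5 either way) and the family genes by role, with dotted lines at 1.5-fold. BCL2L11 lies just past the lower line and BBC3 just inside it, both at the low end of expression where the grey cloud is wide, and the other 8 lie near 0.

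Set against each other as sums, pro- and anti-apoptotic mRNAs kept nearly the same proportion. The BH3-only genes made up 9.60% of the summed family level in DOX(+) and 11.5% in DOX(-), so they weigh little in these sums. The 4 anti-apoptotic genes summed to 56.9 FPKM in DOX(+) and 54.6 FPKM in DOX(-), the effectors to 29.7 FPKM in DOX(+) and 27.97 FPKM in DOX(-), and the BH3-only genes to 9.20 FPKM in DOX(+) and 10.8 FPKM in DOX(-). The anti-apoptotic sum was 1.46 times the sum of the 6 pro-apoptotic genes in DOX(+) and 1.41 times in DOX(-). The quotient of these values was 1.04, with counting intervals of 0.868 to 1.24 on shortest transcripts and 0.946 to 1.14 on longest. Against the effectors alone the anti-apoptotic sum was 1.92 times in DOX(+) and 1.95 times in DOX(-), and against the BH3-only genes alone 6.19 times in DOX(+) and 5.07 times in DOX(-). The last quotient, 1.22, had intervals of 0.856 to 1.74 and 1.05 to 1.41.

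**Figure D4:**
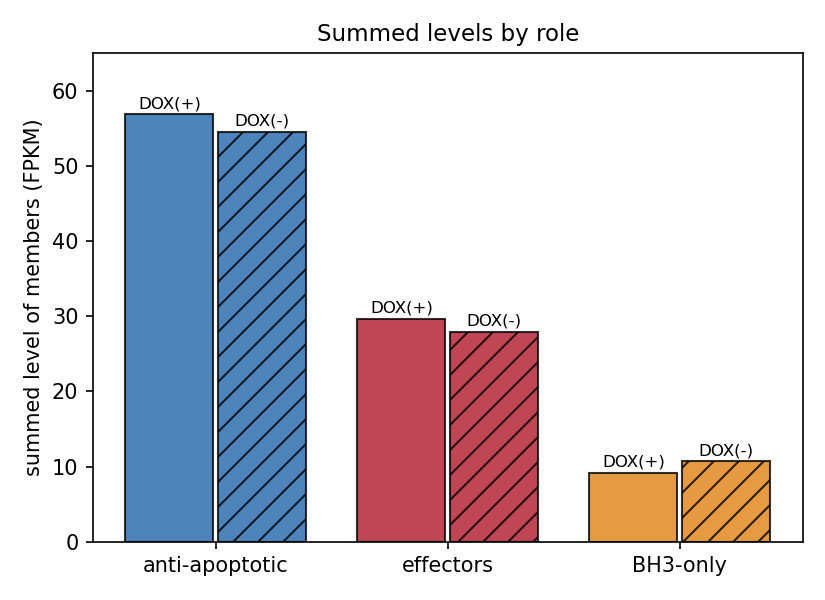
Summed FPKM of the anti-apoptotic members, effectors and BH3-only members in the libraries labelled DOX(+) (plain bars) and DOX(-) (hatched bars). The anti-apoptotic bars stand at 56.9 in DOX(+) and 54.6 in DOX(-), the effector bars at 29.7 and 27.97 in the same order, and the BH3-only bars at 9.20 and 10.8.

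Of the 24 quotients of an anti-apoptotic over a pro-apoptotic gene, the 8 that have BCL2L11 or BBC3 below the line were 1.65 to 2.56 times as high in DOX(+) as in DOX(-), and the other 16 differed by factors of 0.729 to 1.302. These pairs share members and are not independent. The split restates the lower levels of BCL2L11 and BBC3 in DOX(+). On the longest transcripts the intervals of all 8 excluded equal quotients, but on the shortest only 2 did. BCL2 over BAX, a widely used index, was 0.269 in DOX(+) and 0.293 in DOX(-). MCL1 over PMAIP1, the genes of NOXA and its main partner, was 7.80 in DOX(+) and 5.99 in DOX(-), with intervals of the quotient of 0.831 to 2.04 and 0.980 to 1.73. BCL2 over BCL2L11 was 2.04 in DOX(+) and 1.02 in DOX(-).

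Of 7 further family genes with a role in membrane permeabilization, 3 reached 1 FPKM and none of these was past 1.5-fold on the log2(FPKM + 1) scale. BCL2L2, which encodes the anti-apoptotic BCL-W, was at 3.34 FPKM in DOX(+) against 2.01 FPKM in DOX(-), a plain ratio of 1.66 with intervals of 0.928 to 3.18 and 1.33 to 2.09. Its exons share 813 nucleotides on the same strand with the readthrough gene BCL2L2-PABPN1 (11.5 FPKM in DOX(+), 9.78 FPKM in DOX(-)), so its value is uncertain. BAD, a BH3-only protein that phosphorylation silences, was at 6.01 FPKM in DOX(+) against 4.15 FPKM in DOX(-), and BIK, a BH3-only protein of the endoplasmic reticulum, at 5.84 FPKM in DOX(+) against 7.28 FPKM in DOX(-). BMF, a BH3-only protein known to bind a dynein light chain, was under 1 FPKM in both libraries and so not counted, but its difference was opposite to that of BBC3 and larger. It had 0.888 FPKM in DOX(+) against 0.157 FPKM in DOX(-), a plain ratio of 5.66 and 1.63-fold on the log2(FPKM + 1) scale. The interval was 0.805 to 282.4 on the shortest transcript (about 7 fragments in DOX(+) and 1 in DOX(-)) and 3.11 to 11.6 on the longest (about 77 and 12 in the same order). HRK was at 0.123 FPKM in DOX(+) against 0.137 FPKM in DOX(-), and BOK and BCL2L10 were listed at 0. Among 9 relatives with other functions, all 7 tested genes lay within 1.5-fold (median log2 ratio -0.07), the largest differences being those of the autophagy gene BECN1 (3.75 FPKM in DOX(+), 4.44 FPKM in DOX(-)), BCL2L13 (3.30 FPKM in DOX(+), 3.88 FPKM in DOX(-)) and the mitophagy receptor gene BNIP3L (9.32 FPKM in DOX(+), 10.6 FPKM in DOX(-)).

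Genes that act on the family at the protein level differed little apart from VDAC2. Of the 25 tested genes of turnover and localisation, 0 were 1.5-fold higher and 1 was lower, with a median log2 ratio of 0.04. The shares over all tested genes were 4.06% higher and 3.11% lower. After VDAC2 the largest differences were those of BAG6, a chaperone factor (30.3 FPKM in DOX(+), 40.99 FPKM in DOX(-)), and DYNLL1, a dynein light chain known to hold BIM (9.54 FPKM in DOX(+), 7.20 FPKM in DOX(-)). Downstream of the pores, none of the 12 genes of mitochondrial release and the apoptosome was counted as different. Their median log2 ratio was 0.09, with 7 genes above 0 and 5 below. DIABLO, an antagonist of inhibitors of apoptosis, was at 4.08 FPKM in DOX(+) against 5.36 FPKM in DOX(-). CASP2 was at 1.71 FPKM in DOX(+) against 2.92 FPKM in DOX(-), a plain ratio of 0.584. XIAP had the highest log2 ratio of these genes, with 1.11 FPKM in DOX(+) against 0.458 FPKM in DOX(-). Its plain ratio was 2.43, but the pseudocount brought this to 1.45-fold. The interval was 0.216 to 141 on the shortest transcript (about 3 fragments in DOX(+) and 1 in DOX(-)) and 1.82 to 3.29 on the longest.

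Of 20 tested transcription factors known to act on the family, 0 were 1.5-fold higher in DOX(+) and 2 were lower. Over all tested genes, 4.06% were higher and 3.11% were lower. DDIT3 encodes CHOP, which is known to raise BIM and PUMA in endoplasmic reticulum stress. Its level of 1.73 FPKM in DOX(+), against 4.63 FPKM in DOX(-), gave a ratio of 0.373 and intervals of 0.219 to 0.652 and 0.241 to 0.560. MYC, which sensitises cells to apoptosis, was at 2.06 FPKM in DOX(+) against 29.5 FPKM in DOX(-). RELA, the NF-kappaB subunit, was at 1.66 FPKM in DOX(+) against 2.90 FPKM in DOX(-), within 1.5-fold on the log2(FPKM + 1) scale, with intervals of 0.202 to 1.82 and 0.440 to 0.744. FOXO3, known to drive BCL2L11 and BBC3 when growth factors are withdrawn, was at 5.504 FPKM in DOX(+) against 5.68 FPKM in DOX(-). The median of the list was -0.15. Whether any of these differences bears on BCL2L11 or BBC3 was not tested.

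Promoter windows (RefSeq, GRCh38.p14, 250 bases before and 50 after an annotated start) matched 9 of the 10 genes, MCL1 being the one without an entry. They are shown for the family genes with the largest differences, BCL2L11 and BBC3, for BAX, which holds the same E-box as BBC3, and for BCL2A1, which holds the letters of the CHOP-ATF4 composite. Each is written 5′ to 3′ on the gene's strand, and capitals mark matches, on either strand, to the E-box CACGTG bound by MYC, the FOXO motif GTAAACA or the first letters of the CHOP-ATF4 composite, TGATGNAA.
BCL2L11, chr2:111120664-111120963, plus strand: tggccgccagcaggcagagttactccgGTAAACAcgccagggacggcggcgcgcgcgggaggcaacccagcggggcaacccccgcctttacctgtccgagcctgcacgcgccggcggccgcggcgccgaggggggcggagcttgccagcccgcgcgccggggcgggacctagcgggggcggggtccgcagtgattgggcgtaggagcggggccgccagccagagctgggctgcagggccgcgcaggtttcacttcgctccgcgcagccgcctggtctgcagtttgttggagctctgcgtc
BBC3, chr19:47232618-47232917, minus strand: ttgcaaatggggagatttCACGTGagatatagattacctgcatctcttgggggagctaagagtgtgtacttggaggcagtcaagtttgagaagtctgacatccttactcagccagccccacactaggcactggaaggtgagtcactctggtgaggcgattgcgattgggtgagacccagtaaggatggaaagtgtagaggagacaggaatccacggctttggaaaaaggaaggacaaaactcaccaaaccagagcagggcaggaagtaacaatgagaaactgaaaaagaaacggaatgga
BAX, chr19:48954625-48954924, plus strand: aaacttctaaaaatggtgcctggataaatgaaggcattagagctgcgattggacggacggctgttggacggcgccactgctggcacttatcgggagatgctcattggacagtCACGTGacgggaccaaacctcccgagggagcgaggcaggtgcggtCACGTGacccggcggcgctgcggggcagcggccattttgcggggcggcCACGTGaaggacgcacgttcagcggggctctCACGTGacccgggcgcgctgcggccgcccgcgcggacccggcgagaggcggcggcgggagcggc
BCL2A1, chr15:79971147-79971446, minus strand: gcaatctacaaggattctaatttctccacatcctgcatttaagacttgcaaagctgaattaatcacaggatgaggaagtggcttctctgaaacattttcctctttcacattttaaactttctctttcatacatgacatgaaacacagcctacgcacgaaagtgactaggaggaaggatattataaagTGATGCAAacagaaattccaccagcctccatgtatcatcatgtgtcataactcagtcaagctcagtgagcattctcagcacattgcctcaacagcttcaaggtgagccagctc

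The BCL2L11 window held 1 FOXO motif, beginning 223 bases before the start, a motif found in 3.42% of all 35116 windows of this length. BBC3 held 1 E-box, 232 bases before its start, and BAX held 4, beginning 138, 93, 45 and 14 bases before its start, while 7.26% of all windows held at least 1. BCL2A1 held the composite's letters 63 bases before its start, as 3.62% of all windows did, and a TATA box (TATAAA) 70 bases before its start, so that these stand next to each other. The E-box was also found in 2 of the 5 BID windows, which overlap and hold the same E-box. None of the 3 motifs was in the windows of BAK1, BCL2, BCL2L1 or PMAIP1. The GC box GGGCGG, bound by SP1, was in 9 of the 14 family windows and in 45.0% of all windows, and it occurred 3 times for BCL2L11, 2 times for BAX and in neither the BBC3 nor the BCL2A1 window. The 14 include overlapping BID windows that share GC boxes, so they are not separate observations. The TATA letters were in 2 of the 14, those of BCL2A1 and BCL2L1, and in 11.5% of all windows. The GC content of the 14 family windows ran between 41.0% for BCL2A1 and 78.0% for a BID window, with 74.7% for BCL2L11 and 48.0% for BBC3, against a median of 58.7% over all windows. A match is only a description of these letters. BCL2L11 and BBC3 also have other annotated starts, and the table gives no value per start.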

How the data were processed

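The authors deposited 1 table with FPKM values (fragments per kilobase of transcript, relative to the library total) per gene and condition, per the file headers. Software and builds in the submitters' processing notes, given without roles, are HISAT2 2.1.0, StringTie 1.3.4b, CASAVA 1.8, edgeR, hg38 and GRCh38. Annotation release, strand and read length are not given in the sources used here. Of 58302 gene identifiers, 58039 were found in GENCODE release 29, and all 10 family genes had the same locus there, so its transcript lengths and exons were used.

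Differences are of log2(FPKM + 1), DOX(+) minus DOX(-). The pseudocount of 1 FPKM understates changes of low genes. A rule of size, 1.5-fold, was applied to genes that reached 1 FPKM in at least 1 library. With 1 library per condition there is no replicate check and no p-value. FPKM values of genes with 1 annotated transcript are multiples of 1 fragment, which gave the library totals: 99.6% of values up to 100 fragments in DOX(+) and 99.5% in DOX(-) came out whole within 0.02 fragment. Ratio intervals are exact conditional 95% intervals (Clopper-Pearson), and those of quotients use the sum of counting variances. They cover counting error only, and without molecular identifiers PCR copies are not told from separate molecules. Neighbouring levels were compared in the same way. FPKM of a gene with several transcripts also depends on how fragments were divided between them, which was not tested.

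The genes and lists were chosen with earlier results of these data known. Of 108 listed symbols 107 were found, and 1 gene of the turnover list is not analysed here. Named genes are the 10 family genes, and from each other list those past 1.5-fold and the 3 that differ most among genes reaching 2 FPKM, apart from 1 that is not reported here. FOXO3, MPO, VDAC1, VDAC3, XIAP and the low or unlisted family genes BMF, HRK, BOK and BCL2L10 were named after their values were seen, as were the promoter motifs. With 2 libraries no likeness of pattern between genes can be measured. The design assumed FPKM or counts, and the FPKM branch was used. Calls and intervals were tested on simulated data with counting error alone and the longest transcript of each gene. Changes well past 1.5-fold were planted there, only in genes of 5 FPKM or more. The simulation therefore does not cover changes near 1.5-fold in genes as low as BCL2L11 and BBC3. Python 3.11.15, NumPy 2.4.6, pandas 2.3.3, SciPy 1.17.1 and matplotlib 3.10.9 were used.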

Additional observations from a re-analysis of the deposited data

How the results depend on the processing

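No paired analysis was possible because each condition has 1 library. Of 204 values recomputed under alternatives, 184 stayed within the limits set for them, 20 moved, and 0 called values changed sign. The count of family genes past the fold and lower in DOX(+), 1 as reported, became 0 with a 2-fold threshold, with a filter of 5 FPKM (which leaves BCL2L11 and BBC3 out by construction) and with scaling to the sum without mitochondrial genes. It became 2, BCL2L11 and BBC3, with a pseudocount of 0.1 or 0.5 FPKM and by plain FPKM ratio, an alternative chosen after seeing the data. BCL2L11 itself ran from -0.97 to -0.55 in log2 ratio over 10 settings. The counts over all tested genes, 468 higher and 358 lower, became 138 and 96 with a 2-fold threshold, 880 and 631 with a pseudocount of 0.1 FPKM, 205 and 161 with a filter of 5 FPKM, 277 and 219 for protein-coding genes only, and 949 and 667 by plain FPKM ratio. Scaling moved all ratios by -0.03 to 0.07 in log2. The BH3-only median, -0.34 as reported, was -0.45 with a pseudocount of 0.5 FPKM, -0.56 with one of 0.1 FPKM and -0.59 by plain ratio. It could not be computed with a filter of 5 FPKM. On the shortest transcripts the values of BCL2L11 and BBC3 stand for under 20 fragments in each library, which limits both ratios.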
